A study of Mus musculus with 16 samples.

Results

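Ribosome biogenesis factors are the proteins that transcribe, modify, cut and fold ribosomal RNA and build it into the small and large ribosomal subunits. The set described here holds 40 of these genes, chosen by name from textbook knowledge of the pathway and matched to the gene symbols of the deposited tables. The rule holds no measured value, but the choice was made with earlier results of these data known. All 40 were found among the 25803 genes in all, and all 40 passed the filter on low counts. By role they comprise 3 subunits of RNA polymerase I, 8 core proteins of small nucleolar ribonucleoproteins (snoRNPs), 6 nucleolar organisers including a helicase, 12 factors of small subunit assembly and 11 factors of large subunit assembly.

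Bulk RNA sequencing was done on liver of male mice given a high-fat diet (HFD), for 12 weeks in all groups. Control mice, called WT in the design text, and mice with hepatic loss of Cpt1a (LKO) were sampled either in the fasted state (16 h) or in the refed state (the same fast, then 6 h of food). Refed livers were thus taken 6 h later after the start of the fast, so food and that elapsed time cannot be told apart. Each of the 4 groups, fasted control, fasted LKO, refed control and refed LKO, had 4 libraries. The labels do not say by which promoter or vector the gene was removed, and the strain, the age and the litter of the mice are not given in the sources used here.

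Ribosome production begins in the nucleolus, where RNA polymerase I transcribes the precursor of most ribosomal RNA. Box C/D and H/ACA snoRNPs guide its methylation and pseudouridylation, and separate sets of assembly factors mature the small and the large subunit and accompany them to the cytoplasm. In liver the pathway is known to be a heavy consumer of energy and amino acids, with feeding, insulin and the mTOR kinase among its activators, and MYC is the best known transcriptional activator of its genes.

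Libraries carry the names S40 to S55. Fasted control libraries run from S40 to S43 and fasted LKO libraries from S44 to S47, then refed control from S48 to S51 and refed LKO from S52 to S55, and values per library below follow that order. Their totals ran from 14721601 to 24618230 counts. Levels are in CPM, counts divided by the library total in mega counts, scaled with TMM factors that correct for library composition. Cpt1a, which encodes the enzyme that admits long-chain fatty acids to mitochondrial oxidation, was at 378 to 556 CPM in fasted control and 86.1 to 126 CPM in fasted LKO livers. After refeeding it was at 319 to 620 CPM in control and 39.9 to 75.2 CPM in LKO livers, so that every LKO library lay below every control library. The summed level of 8 hepatocyte markers ran from 58156 to 88053 CPM, with none of them at 0 in any group. In bulk tissue, fewer cells of a type and less RNA per cell cannot be told apart. The labels number the samples of a group without saying that they came from separate animals, so the p-values measure the spread between these libraries, which may be technical.

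Refeeding raised a large share of the set in both genotypes, and the members that rose came from 4 or all 5 of the roles. In control livers 12 of 40 members rose and 2 fell, against 7.79% of all 14488 genes tested that rose and 7.65% that fell. In LKO livers 15 of 40 members rose and 1 fell, against 9.28% and 8.78% of all genes. A member is said to rise or fall where the quasi-likelihood test of edgeR gave a Benjamini-Hochberg adjusted p under 0.05, over all genes tested. The median refeeding change of the 40 members was 0.16 on the log2 scale in control and 0.31 in LKO livers, beside 0.01 and -0.02 for all genes. In each genotype 33 of 40 members had a positive change. The authors' deposited tables list 12 members as higher and 2 as lower in control livers, of which 11 and 2 were called here too, and 14 as higher and 1 as lower in LKO livers, all of them called here. The count in control livers was 9 without library S40 and 9 without S50, in place of 14, and the count in LKO livers was 9 without S52 and 10 without S55, in place of 16.

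**Figure D1:**
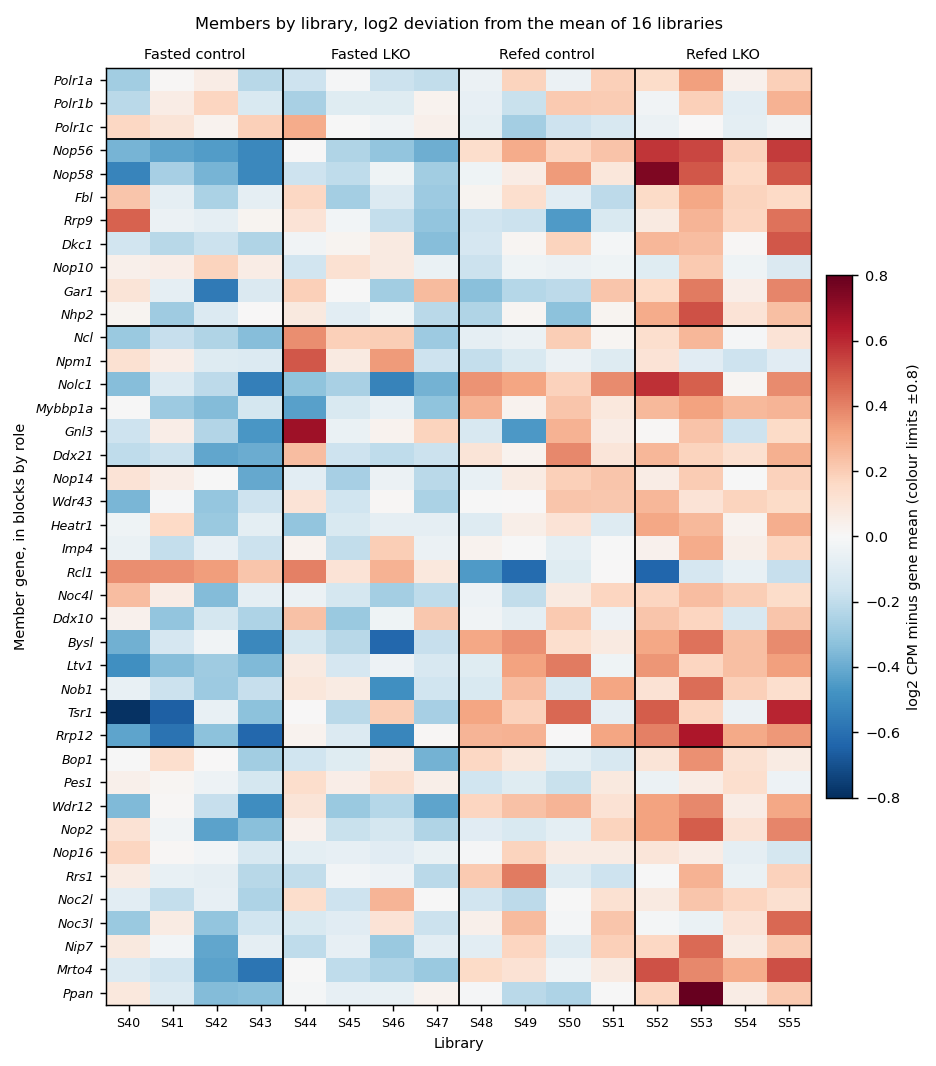
Each row is a member, in blocks by role, and each column is a library. Colour gives the log2 CPM of the member minus its mean over the 16 libraries. Members above their own mean numbered 5 to 17 per library in fasted control, 7 to 22 in fasted LKO, 14 to 26 in refed control and 28 to 37 in refed LKO livers.

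Over the 40 members, the median deviation from the gene's own mean lay between -0.22 and -0.04 (log2) in the 4 fasted control libraries and between -0.18 and 0.02 in fasted LKO. It lay between -0.04 and 0.07 in refed control and between 0.06 and 0.27 in refed LKO. Within the LKO livers the fasted and refed ranges did not overlap, and within the control livers only fasted S40 lay above refed S48. Only S54 among the refed LKO libraries lay within the refed control range.

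The 9 members that rose in both genotypes were Nop56, Nop58, Nolc1, Mybbp1a, Bysl, Ltv1, Rrp12, Wdr12 and Mrto4, which make up 75% of the list that rose in control and 60% of the list that rose in LKO livers. Ddx21, Tsr1 and Wdr43 passed the test in control livers alone, and Polr1a, Nhp2, Heatr1, Noc4l, Nop2 and Nip7 in LKO livers alone. None of these 9 differed between the genotypes by the test of the difference itself, which is given further on. Rcl1 fell in both genotypes. The refeeding contrasts of the 2 genotypes have no library in common, and the change had the same sign in both for 36 of 40 members (90%), against 64.8% of all genes tested. Pearson's r between the refeeding changes of the 2 genotypes was 0.70 across the 40 members and 0.49 across all genes, given as a description because genes of the same libraries are not independent.

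**Figure D2:**
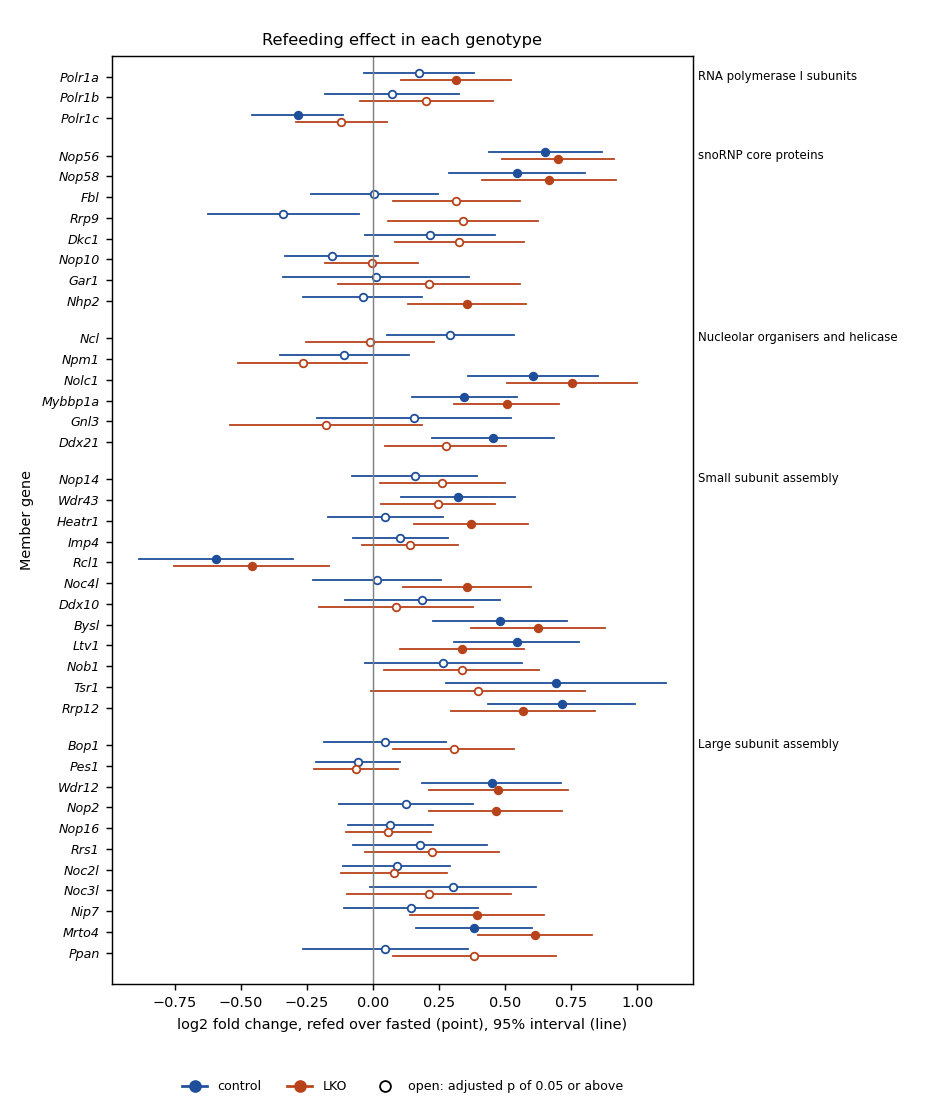
The log2 fold change of each member, refed over fasted, is drawn as a point with its 95% interval as a line, in control (blue) and LKO (orange) livers. Filled points passed the test: 12 to the right and 2 to the left of 0 in control, 15 to the right and 1 to the left in LKO livers.

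Promoter sequence is shown for members that moved together, since CACGTG, the E-box read by MYC with MAX among other factors, is the motif best known for this pathway. RefSeq windows of 300 bases, 250 before and 50 after an annotated start, were matched for 35 of the 40 members on build GRCm38.p6, which is not the build of the counts. Npm1, Fbl, Bop1, Rrp12 and Rrs1 were not matched. The motif reads the same on both strands, and it occurred in the windows of 7 of the 35 members (20%), against 8.09% of 27025 genes with a window and 11.6% of the 10550 tested genes with one. Among all 32851 windows of that length 7.15% held it. Of the 17 matched members that rose on refeeding in either genotype 5 held it, as did 2 of the other 18. The windows of those 5 are printed first, 5′ to 3′ on the gene's strand, with the motif in capitals and up to 12 bases on each side.
Mybbp1a, chr11:72441355-72441376, plus strand: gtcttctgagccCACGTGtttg
Wdr43, chr17:71616220-71616249, plus strand: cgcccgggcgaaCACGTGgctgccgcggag
Ltv1, chr10:13193092-13193121, minus strand: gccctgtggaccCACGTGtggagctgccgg
Tsr1, chr11:74898092-74898121, plus strand: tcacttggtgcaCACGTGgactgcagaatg
Nop2, chr6:125131811-125131840, plus strand: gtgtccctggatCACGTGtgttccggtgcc
In Nop2 the motif began 60 bases before the start, and in Mybbp1a, Wdr43, Ltv1 and Tsr1 it lay 40, 17, 28 and 24 bases after it. The matches in the members that did not rise were those of Imp4, 121 bases before the start, and Pes1, 2 bases after it.
Imp4, chr1:34439696-34439725, plus strand: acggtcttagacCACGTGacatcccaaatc
Pes1, chr11:3963965-3963994, plus strand: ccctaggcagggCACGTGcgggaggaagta
Nop56 and Nolc1, with the largest rises among the matched members called in both genotypes, held no CACGTG in their windows. Their 250 bases upstream of the start are printed in lower case throughout, because no motif searched occurs there. The Nop56 stretch had 65.2% G and C and the Nolc1 stretch 56.4%.
Nop56 upstream stretch, chr2:130274162-130274411, plus strand: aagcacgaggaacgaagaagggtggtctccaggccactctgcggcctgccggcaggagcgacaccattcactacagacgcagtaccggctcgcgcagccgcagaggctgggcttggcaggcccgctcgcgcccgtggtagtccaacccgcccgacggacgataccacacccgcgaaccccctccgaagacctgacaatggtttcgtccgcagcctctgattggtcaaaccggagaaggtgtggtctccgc
Nolc1 upstream stretch, chr19:46075597-46075846, plus strand: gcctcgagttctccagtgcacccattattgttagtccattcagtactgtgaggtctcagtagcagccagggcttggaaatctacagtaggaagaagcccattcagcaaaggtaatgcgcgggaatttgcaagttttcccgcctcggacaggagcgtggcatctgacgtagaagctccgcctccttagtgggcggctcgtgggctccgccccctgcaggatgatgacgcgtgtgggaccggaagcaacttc
A match is a run of letters and not a measured binding site, and binding was not measured in these samples.

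RNA polymerase I, the enzyme that makes the ribosomal RNA precursor, was represented by Polr1a, its largest subunit, Polr1b, the second-largest, and Polr1c, a subunit it has in common with RNA polymerase III. Polr1a rose in LKO livers by 0.31 (log2, SE 0.10, adjusted p = 0.0362), from 16.6 ± 1.02 to 20.7 ± 1.75 CPM (mean ± SD), a call lost without S44, S46, S47, S52, S53 or S55. In control livers its change was 0.17 (SE 0.10, adjusted p = 0.256). Polr1c fell in control livers. Its levels were 23.7, 22.7, 21.6 and 24.2 CPM in fasted control libraries and 20, 17.5, 18.8 and 19.3 CPM in the refed ones. Every refed control library lay below every fasted one, and the change was -0.28 (SE 0.08, adjusted p = 0.027). In the LKO livers Polr1c stood at 26, 21, 20.7 and 21.7 CPM when fasted and at 20.5, 21.2, 20 and 20.7 CPM when refed, ranges that overlap, with a change of -0.12 (SE 0.08, adjusted p = 0.343). The call in control livers was lost without S40, S43, S49 or S50, with an adjusted p of up to 0.0751. Polr1b changed by 0.07 in control and 0.20 in LKO livers and passed in neither.

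Among the snoRNP core proteins, 2 of 8 rose in control and 3 of 8 in LKO livers, and none fell. Over all genes tested 7.79% rose in control and 9.28% in LKO livers. The box C/D snoRNP carries the ribose methyltransferase Fbl (fibrillarin) on a scaffold of Nop56 and Nop58. Nop56 stood at 15.2, 14.7, 14.5 and 13.8 CPM in fasted control libraries and at 21.8, 24.3, 22.3 and 23.1 CPM in refed control libraries. In LKO livers it stood at 19.8, 16.7, 15.9 and 15 CPM when fasted and at 29.4, 28.6, 22.4 and 29.2 CPM when refed. Refed libraries lay above all fasted libraries of their genotype, and the refed mean was 57.3% higher in control and 62.6% higher in LKO livers. The changes were 0.65 (SE 0.10, adjusted p = 0.000951) and 0.70 (SE 0.10, adjusted p = 0.000238). The gene lies on the plus strand at chr2:130116350-130121233 in the deposited tables, for which the submitters' processing notes name build mm39.

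Nop58, the partner of Nop56 in the scaffold, stood at 9.14, 11, 10.2 and 9.2 CPM in fasted control and at 12.9, 13.8, 16.7 and 14 CPM in refed control libraries. In LKO livers it stood at 11.7, 11.4, 12.9 and 10.9 CPM when fasted and at 22.3, 18.7, 14.8 and 18.7 CPM when refed. Neither pair of groups overlapped, S54 was the lowest refed LKO library for Nop58 as for Nop56, and the changes were 0.54 (SE 0.12, adjusted p = 0.00774) and 0.67 (SE 0.12, adjusted p = 0.00122). Fbl, the enzyme that this scaffold holds, changed by 0.00 in control livers and by 0.32 in LKO livers (SE 0.11, adjusted p = 0.0654), so it passed in neither. Rrp9, a protein of the U3 snoRNP, which guides early cuts of the precursor, changed by -0.34 in control (adjusted p = 0.0989) and by 0.34 in LKO livers (adjusted p = 0.0911).

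The H/ACA snoRNP, which pseudouridylates ribosomal RNA, consists of the synthase Dkc1 (dyskerin) with Nop10, Gar1 and Nhp2. Of these 4, Nhp2 alone passed, and only the LKO refeeding contrast and the refed genotype contrast called it. Both contrasts use the same refed LKO libraries, so the calls are not independent of each other. Nhp2 stood at 39.6, 35.4, 36.5 and 32.3 CPM in fasted LKO and at 46, 53.4, 40.4 and 44.3 CPM in refed LKO libraries, with no overlap. The change was 0.36 (SE 0.11, adjusted p = 0.0273), and it was not called without S45, S47, S52 or S53. In control livers Nhp2 stood at 37.9, 30.7, 34.7 and 37.4 CPM when fasted and at 31.7, 37.8, 29.8 and 37.9 CPM when refed, with a change of -0.04 (SE 0.11, adjusted p = 0.843). Dkc1 changed by 0.22 in control and 0.33 in LKO livers, Gar1 by 0.01 and 0.21, and Nop10 by -0.16 in control livers, and none of the 3 passed in either genotype.

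Of the 6 nucleolar organisers, Nolc1, Mybbp1a and Ddx21 were called on refeeding. Nolc1, a chaperone that binds snoRNPs on their way through the nucleolus, stood at 21.2, 25, 23.3 and 18.4 CPM in fasted control and at 34.7, 33.6, 30.7 and 35.1 CPM in refed control libraries. In LKO livers it stood at 21.6, 22.5, 18.6 and 20.8 CPM when fasted and at 40.6, 37.6, 27.3 and 35 CPM when refed. All refed libraries lay above all fasted libraries, and the changes were 0.61 (SE 0.12, adjusted p = 0.00325) and 0.75 (SE 0.12, adjusted p = 0.00044). Nolc1 had the largest rise of any member in LKO livers, with a refed mean 68.4% above the fasted mean. Mybbp1a, a nucleolar MYB-binding protein, rose by 0.35 in control (adjusted p = 0.0208) and 0.51 in LKO livers (adjusted p = 0.00155). Ddx21, an RNA helicase that acts on ribosomal RNA transcription and processing, rose by 0.45 in control livers (adjusted p = 0.0114) and changed by 0.28 in LKO livers (adjusted p = 0.0914).

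The other 3 nucleolar members were not called on refeeding. Ncl (nucleolin), which binds the nascent precursor, was at 91.5 to 102 CPM in fasted and 110 to 133 CPM in refed control libraries, without overlap. Its change was 0.29 (adjusted p = 0.093), while the authors' deposited table gives 0.294 with an adjusted p of 0.0144 and so lists it as higher. In LKO livers Ncl changed by -0.01. Npm1 (nucleophosmin), a histone and ribosomal protein chaperone, changed by -0.11 and -0.26, and Gnl3 (nucleostemin), a GTPase of the nucleolus, by 0.15 and -0.18.

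Small subunit assembly held the largest rise and the largest fall of the set in control livers. Of its 12 members 5 rose and 1 fell in each genotype. The share that rose was 41.7%, against 7.79% of all genes tested in control and 9.28% in LKO livers. Rrp12, which accompanies precursor subunits out of the nucleus, stood at 7.2, 6.42, 7.71 and 6.24 CPM in fasted control and at 11.8, 11.8, 9.71 and 12.1 CPM in refed control libraries. In LKO livers Rrp12 stood at 9.88, 9, 6.73 and 9.76 CPM when fasted and at 12.8, 15.2, 12 and 12.4 CPM when refed. Refed libraries lay above fasted libraries in both genotypes, and the changes were 0.71 (SE 0.13, adjusted p = 0.00257) and 0.57 (SE 0.13, adjusted p = 0.0059). The refed mean was 64.5% higher in control and 48.3% higher in LKO livers.

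Tsr1, a GTPase-like protein of late small subunit precursors, was among the least abundant members, with 46 to 152 counts per library. It stood at 2.43, 2.68, 4.11 and 3.4 CPM in fasted control and at 5.37, 4.89, 5.93 and 4.07 CPM in refed control libraries, so that the highest fasted library reached above the lowest refed one. The change was 0.69 (SE 0.20, adjusted p = 0.0256) and was not called without S40, S41, S48 or S50, with an adjusted p of up to 0.093. In LKO livers Tsr1 changed by 0.40 (SE 0.19, adjusted p = 0.171). Tsr1 also overlaps Srr on the opposite strand by 2984 bases of its annotated span, with Srr at 52.7 CPM, and whether counting used strand is not given in the sources used here.

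Bysl (bystin), needed for the cuts that free the small subunit RNA, stood at 18.5, 21.9, 23.6 and 16.8 CPM in fasted control and at 29.9, 31.2, 26.4 and 25.3 CPM in refed control libraries. In LKO livers Bysl stood at 21.9, 20.6, 15.6 and 21.3 CPM when fasted and at 29.9, 32.6, 28.5 and 31.4 CPM when refed. The fasted and refed libraries did not overlap in either genotype, and the changes were 0.48 (SE 0.12, adjusted p = 0.0141) and 0.63 (SE 0.12, adjusted p = 0.00203). Ltv1, a late factor of the same subunit, rose by 0.54 in control (adjusted p = 0.005) and by 0.34 in LKO livers (adjusted p = 0.0453). Leaving out single libraries, the LKO call was lost in 9 of 16 fits.

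Rcl1, related to RNA cyclases and needed to process the small subunit RNA, was the only member that fell in both genotypes. It stood at 173, 172, 168 and 155 CPM in fasted control and at 97.4, 87.1, 125 and 134 CPM in refed control libraries. In LKO livers it stood at 176, 144, 162 and 141 CPM when fasted and at 86, 122, 128 and 117 CPM when refed. Every refed library lay below every fasted library, and the mean fell by 33.7% in control and fell by 27.2% in LKO livers. The changes were -0.59 (SE 0.14, adjusted p = 0.00956) and -0.46 (SE 0.14, adjusted p = 0.0292), the latter not called without S44, S46, S52 or S55.

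The other members of small subunit assembly gave smaller values. Wdr43, a component of the early complex that couples transcription with processing, rose by 0.32 in control livers (adjusted p = 0.0432), a call lost in 10 of 16 when single libraries were left out. Heatr1, of the same early complex, rose by 0.37 in LKO livers (adjusted p = 0.019), and Noc4l, the partner of Nop14, by 0.35 (adjusted p = 0.0408). When single libraries were left out, the Heatr1 call was lost in 3 of 16 fits (without S44, S52 or S55) and the Noc4l call in 7, with an adjusted p of up to 0.102. Nop14 itself, Imp4, the helicase Ddx10 and Nob1, the nuclease of the last cut in the small subunit RNA, passed in neither genotype, with changes between 0.09 and 0.34.

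Large subunit assembly followed the same direction, with 2 of 11 members up in control livers, 4 of 11 up in LKO livers and none down. These are 18.2% and 36.4% up, against 7.79% and 9.28% of all genes tested, and with 11 members the control share rests on 2 genes. Bop1, Pes1 and Wdr12 form 1 complex that processes the large subunit RNA, yet only Wdr12 passed. Wdr12 rose by 0.45 in control (SE 0.12, adjusted p = 0.0225) and 0.47 in LKO livers (SE 0.12, adjusted p = 0.0141). Bop1 changed by 0.05 and 0.30 (adjusted p = 0.814 and 0.0624), and Pes1 by -0.06 in each genotype. Mrto4, which holds the place of the ribosomal stalk protein during assembly, rose by 0.38 in control (SE 0.10, adjusted p = 0.0201) and by 0.61 in LKO livers (SE 0.10, adjusted p = 0.00073). Nop2, a cytosine methyltransferase of the large subunit RNA, rose by 0.46 in LKO livers (adjusted p = 0.0128) and Nip7, an early assembly factor, by 0.39 (adjusted p = 0.0302). The Nip7 call was lost without S44, S46, S52, S53 or S55. Nop16, Rrs1, Noc2l, Noc3l and Ppan passed in neither genotype, with changes between 0.05 and 0.38.

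**Figure D3:**
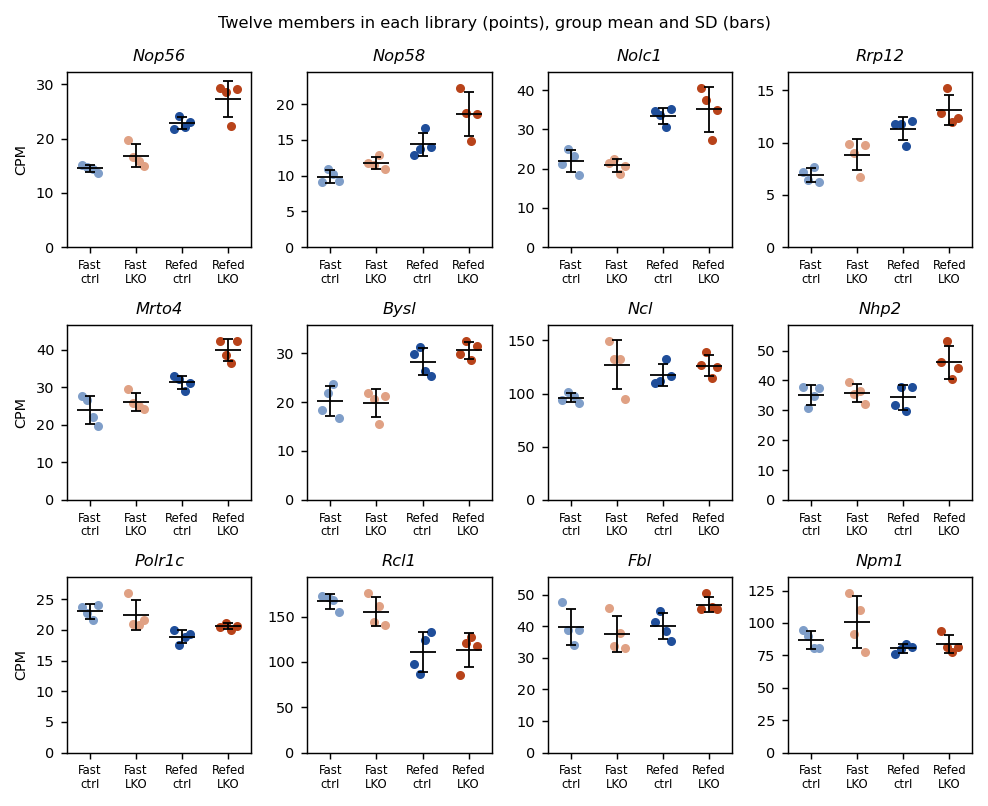
CPM of 12 members in each library (points) with the mean and SD of each group of 4 (bars), on axes that start at 0. Nop56, Nop58, Nolc1, Rrp12, Mrto4 and Bysl are higher and Rcl1 lower in all refed libraries than in all fasted libraries of the same genotype, while Fbl and Npm1 overlap in LKO and in control livers.

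Counting members without overlap gave a like picture. In control livers 13 members were higher in every refed library than in any fasted one and 4 were lower, against 10.4% and 10.1% of all genes tested. In LKO livers 19 were higher and 1 was lower, against 10.6% and 9.95%. The 4 lower members in control livers were Polr1c, Rrp9, Nop10 and Rcl1, of which Polr1c and Rcl1 passed the test.

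Of the lists of genes outside the 40, those of other assembly factors and of the RNA exosome had more genes that rose than fell on refeeding. Over all genes tested 7.79% rose and 7.65% fell in control livers, and 9.28% rose and 8.78% fell in LKO livers. Of 39 other small subunit factors 11 rose and 2 fell in control livers, and 12 rose and 2 fell in LKO livers, with a median of 0.21 in each. Utp20, a giant scaffold of the early small subunit precursor, rose by 0.77 in control (adjusted p = 0.00272) and 0.63 in LKO livers (adjusted p = 0.00601), and the kinase Riok2 by 0.50 and 0.70 (adjusted p = 0.00416 and 0.000247). Rrp36, a small subunit factor, fell by 0.32 and 0.44 (adjusted p = 0.0412 and 0.00595). Of 39 other large subunit factors 9 rose and 3 fell in control livers, and 12 rose and 2 fell in LKO livers, with medians of 0.20 and 0.15. Mdn1, the very large ATPase that strips assembly factors off the precursor, rose by 0.76 and 0.47 (adjusted p = 0.00137 and 0.0154). The RNA exosome, which trims precursor ends, had 2 of 11 genes up and 1 down in control livers and 7 up in LKO livers.

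Of 12 further RNA polymerase I subunits and initiation factors, 1 rose and 1 fell in each genotype, which is 8.33% in each direction and near the shares of all genes given above. Ubtf, which binds along active ribosomal RNA genes, fell from 73.1 ± 3.62 to 53.2 ± 6.61 CPM in control livers, a change of -0.46 (SE 0.09, adjusted p = 0.00319). In LKO livers Ubtf fell from 84.7 ± 7.56 to 48.3 ± 1.91 CPM, a change of -0.81 (SE 0.09, adjusted p = 3.32e-05). Rrn3, which recruits the polymerase, rose by 0.46 in control livers (adjusted p = 0.00587) and changed by 0.20 in LKO livers (adjusted p = 0.177). Myc stood at 4.46 ± 1.61 CPM in fasted and 2.88 ± 1.11 CPM in refed control livers, and at 4.76 ± 1.26 and 2.8 ± 0.63 CPM in LKO livers. Its changes were -0.66 (adjusted p = 0.181) and -0.77 (adjusted p = 0.11), neither of which passed. Of the 10 genes of the MYC network, 2 fell and none rose in control livers, and 2 fell and 1 rose in LKO livers. That is 20% and 30% called in either direction, against 15.4% and 18.1% of all genes tested, on a list of only 10. The MYC antagonist Mxd4 fell by 0.42 in control (adjusted p = 0.0174) and 0.39 in LKO livers (adjusted p = 0.0209), and Mxd3, of the same family, by 1.79 in control livers (adjusted p = 0.0208). Mxd3 was very low, at 0.45 to 0.95 CPM in fasted and 0.16 to 0.26 CPM in refed control libraries. In LKO livers Mycl, a paralogue of Myc, fell by 0.95 (adjusted p = 0.0212) and Mlx, a partner of the MXD proteins, rose by 0.71 (adjusted p = 0.000519). Mycl stood at 6.29, 6.56, 17.9 and 12.4 CPM in fasted LKO and at 4.91 to 6.15 CPM in refed LKO libraries. In the fasted state it was higher in LKO than in control livers by 0.91 (adjusted p = 0.0353). On refeeding of control livers it changed by 0.08 (adjusted p = 0.87).

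Of 10 host genes, whose introns carry snoRNAs, 3 fell in control and 4 in LKO livers and none rose, against 7.65% and 8.78% of all genes that fell. In each genotype 3 of the 10 had a positive change. Zfas1 fell from 13.2 ± 0.437 to 6.57 ± 1.06 CPM in control livers, a change of -0.997 (SE 0.14, adjusted p = 0.00063), and by 0.92 in LKO livers (adjusted p = 0.000442). Gas5 fell by 0.40 and 0.35 (adjusted p = 0.0114 and 0.0198). The ribosomal protein genes, whose products the assembly factors handle, were mostly not called. Of 75 tested, edgeR called 0 in control livers on refeeding, with 7 at an unadjusted p under 0.05. In LKO livers it called 1, Rpl36al, which was higher but low in level, at 0.3 to 0.51 CPM in fasted and 0.92 to 1.24 CPM in refed libraries. The median changes of the 75 were 0.06 in control and 0.09 in LKO livers, with 54 and 61 of them positive.

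**Figure D4:**
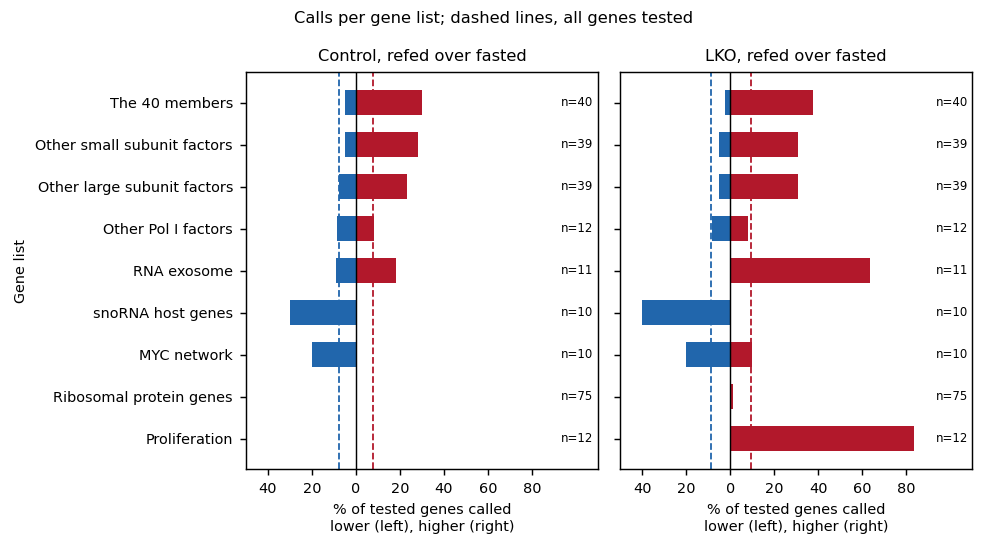
For each gene list, bars give the percent of tested genes that fell (left, blue) and rose (right, red) on refeeding in control and in LKO livers. Dashed lines mark the same percent over all genes tested, 7.65% and 7.79% in control and 8.78% and 9.28% in LKO livers.

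The effect of genotype on the set was small in the fasted state. In fasted livers 1 of 40 members was higher in LKO than in control and none was lower, against 5.75% and 6.48% of all genes tested. The median over members was 0.06, beside 0.02 for all genes, and 23 of 40 were positive. At an unadjusted p under 0.05 there were 6 members. Ncl stood at 94, 102, 97.9 and 91.5 CPM in fasted control and at 150, 132, 133 and 94.5 CPM in fasted LKO libraries. Of the LKO libraries 3 lay above all controls and S47 lay among them. The difference was 0.40 (SE 0.11, adjusted p = 0.0293), and it was not called without S40, S42, S43, S44, S45 or S46, with an adjusted p of up to 0.105 without S44. The authors' deposited table for this comparison lists 0 members as changed, with Ncl at an adjusted p of 0.0512. Ltv1 and Pes1 had no overlap between the genotypes, against 8.3% of all genes higher and 8.57% lower without overlap, and differed by 0.31 (adjusted p = 0.0808) and 0.12 (adjusted p = 0.32).

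Some markers of hepatocytes and of other cell types differed between the genotypes in the same livers. Over all genes tested 5.75% were higher and 6.48% lower in fasted LKO livers, and 2.28% and 1.35% in refed LKO livers. None of the 5 cholangiocyte markers tested was called in either state, nor was the 1 neutrophil marker tested. Of 8 hepatocyte markers 3 were lower in fasted LKO than in fasted control livers, with a median of -0.40. In refed livers 7 of the 8 had a negative difference and 0 were called, with a median of -0.31. The summed level of 8 lymphocyte markers was 5.99 to 10.8 CPM in fasted control and 16.4 to 35.5 CPM in fasted LKO libraries. Among the refed libraries the same sum was 5.17 to 8.07 CPM in control and 17.9 to 40.6 CPM in LKO livers. Only Jchain, a plasma cell gene, passed among the 7 lymphocyte markers tested, in both states. The list ran from -1.10 to 3.35 in fasted livers (median 0.61) and from -0.38 to 3.86 in refed livers (median 0.82). The sums therefore do not stand for every lymphocyte marker. Adipocyte markers went both ways in fasted LKO livers, with Cidec higher and Cfd lower among 3 tested. Alas2 was lower there, and all 5 red cell markers were negative (median -0.76). Dcn was higher, while 4 of 7 stellate cell and fibroblast markers were negative (median -0.09). In refed LKO livers Ly6c2 was higher, with 4 of 6 recruited macrophage and monocyte markers positive (median 0.31). Clec4g was higher there, while 4 of 6 endothelial markers were negative (median -0.07). Resident macrophage markers had a median of -0.996 in refed LKO livers, with 4 of 6 at an unadjusted p under 0.05 and 0 called by edgeR. Their part in the differences of the 40 members was not tested.

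In the refed state 1 of 40 members was higher in LKO than in control and none was lower, against 2.28% and 1.35% of all genes tested, 3.63% in all. The median over members was 0.12, beside -0.01 for all genes, and 38 of 40 members were positive, beside 47.8% of all genes. At an unadjusted p under 0.05 there were 11 members. The one that passed was Nhp2, at 31.7, 37.8, 29.8 and 37.9 CPM in refed control and 46, 53.4, 40.4 and 44.3 CPM in refed LKO libraries. Every LKO library lay above every control library, and the mean was 34.2% higher, a difference of 0.43 (SE 0.11, adjusted p = 0.0364). The call was lost without S48, S50, S52, S53 or S55, with an adjusted p of up to 0.115 without S53. It stood alone among 7 members whose genotypes did not overlap, all of them higher in LKO, against 6.7% of all genes higher and 5.03% lower: Polr1c, Fbl, Rrp9, Nhp2, Imp4, Mrto4 and Ppan.

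By role, the refed genotype difference had a median of 0.32 over the 8 snoRNP proteins, 0.15 over the 11 large subunit factors, 0.11 over the 12 small subunit factors, 0.11 over the 3 RNA polymerase I subunits and 0.08 over the 6 nucleolar organisers. Apart from Nhp2, the largest single values were those of Rrp9 (0.47, adjusted p = 0.0613), Ppan (0.47, adjusted p = 0.084), Gar1 (0.39, adjusted p = 0.204), Nop58 (0.37, adjusted p = 0.0937) and Nop2 (0.36, adjusted p = 0.102). In Ppan, an early large subunit factor, library S53 stood at 37.6 CPM while the other refed LKO libraries stood at 21.8 to 24.1 CPM. The authors' deposited table for this comparison lists 4 members as higher, Mrto4, Nhp2, Nop2 and Rrp9, with fold changes that differed from those given here by at most 0.00627 (log2).

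DNA replication genes were far higher in the same refed LKO livers. Of 12 proliferation genes tested 9 were higher in refed LKO than in refed control livers, with a median of 1.75, and their summed level with 1 untested gene was 48.4 to 64.2 CPM in refed control and 115 to 299 CPM in refed LKO libraries. Mcm5, which belongs to the helicase of DNA replication, averaged 4.26 ± 1.69 CPM in control and 29.4 ± 14 CPM in LKO livers after refeeding (adjusted p = 0.000702). In fasted livers 0 of the 12 passed by edgeR, with 1 at an unadjusted p under 0.05. Their part in the levels of the 40 members was not tested.

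**Figure D5:**
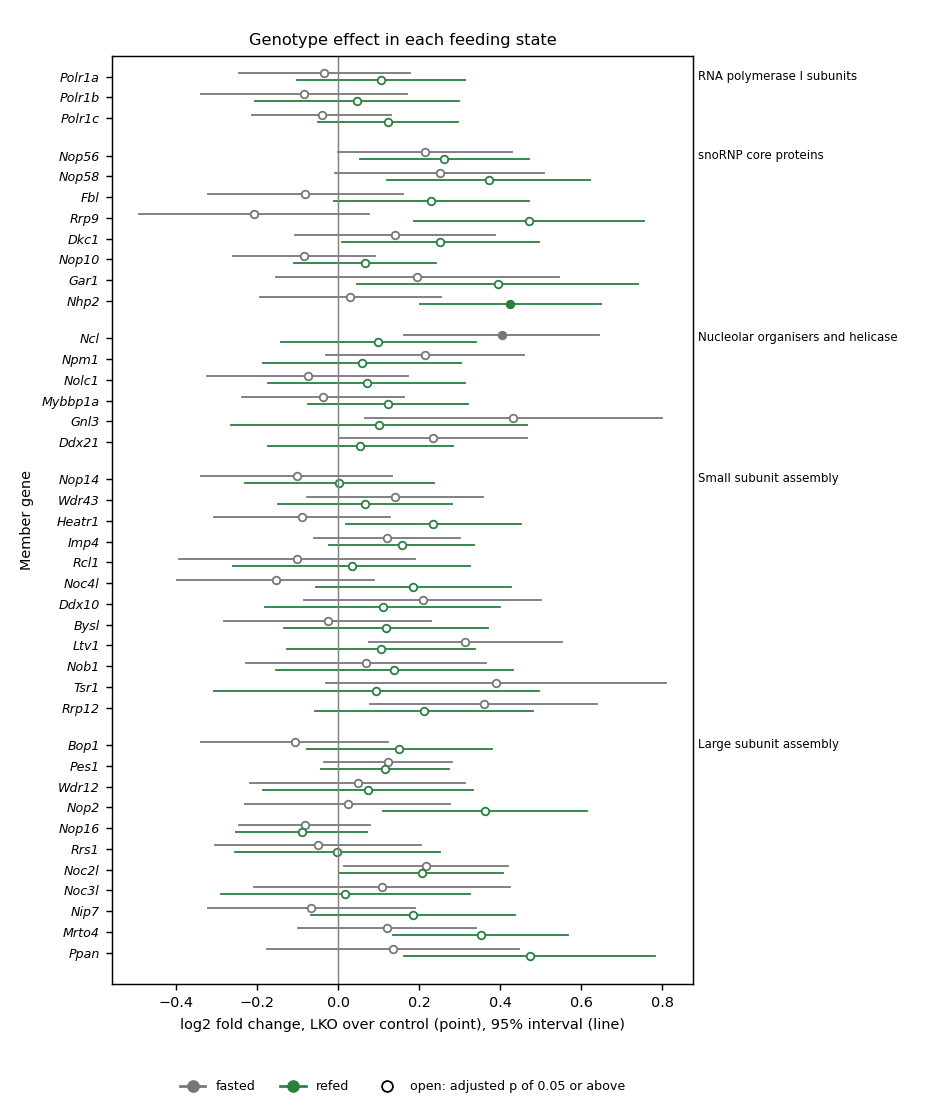
The log2 fold change of each member, LKO over control, is drawn as a point with its 95% interval as a line, in fasted (grey) and refed (green) livers. The filled points are Ncl in fasted and Nhp2 in refed livers, and 38 of 40 refed points lie to the right of 0.

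Whether refeeding acted differently in the 2 genotypes was tested as the interaction, the genotype difference in refed livers minus that in fasted livers. EdgeR called 0 of 40 members, against 0.538% of all genes tested, with 3 members at an unadjusted p under 0.05. Limma-voom also called 0, and DESeq2 called 1, Rrp9. The median interaction over members was 0.12, beside -0.01 for all genes, 27 of 40 were positive, and the values ran from -0.33 for Gnl3 to 0.68 for Rrp9. The 78 other small and large subunit factors leaned the other way, with 32 positive, 46 negative, a median of -0.04 and 0 called by edgeR. The unadjusted 95% interval of a member reached from 0.22 to 0.58 (log2) to either side of its estimate, with a median of 0.34.

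The 4 members with the lowest unadjusted p in the interaction are given as values. Rrp9 stood at 20.2, 14.1, 13.8 and 14.7 CPM in fasted control and 15.6, 14.3, 12.7 and 11.6 CPM in fasted LKO libraries. After refeeding it stood at 13, 12.9, 10.5 and 13.3 CPM in control and 15.2, 17.5, 16.4 and 19.6 CPM in LKO libraries. The fasted groups overlap and the refed groups do not, and the interaction was 0.68 with a 95% interval from 0.28 to 1.08 (SE 0.19, adjusted p = 0.0923). Rrp9 overlaps Parp3 on the opposite strand by 987 bases, with Parp3 at 48.7 CPM. For Nhp2 the interaction was 0.40, with an interval from 0.08 to 0.71 (adjusted p = 0.194).

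Heatr1 stood at 17, 19.4, 14.2 and 16.5 CPM in fasted control, 14, 16, 16.6 and 16.5 CPM in fasted LKO, 16.2, 18, 18.8 and 16.2 CPM in refed control and 21.6, 20.9, 17.8 and 21.3 CPM in refed LKO libraries. Of the refed LKO libraries, S54 lay within the refed control range, and the interaction was 0.32, with an interval from 0.02 to 0.63 (adjusted p = 0.272). Noc4l stood at 15.5, 13.6, 10.2 and 12.4 CPM in fasted control, 12.6, 11.8, 10.8 and 11.3 CPM in fasted LKO, 12.7, 11.4, 13.7 and 14.7 CPM in refed control and 14.7, 15.5, 15 and 14.4 CPM in refed LKO libraries. Its groups overlapped within each feeding state, and the interaction was 0.34, with an interval from just below 0 to 0.68 (adjusted p = 0.306).

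Levels of the members differed widely once divided by gene length. Over all 16 libraries Rcl1 was highest, at 72.3 ± 15.9 CPM per kilobase (SD), followed by Nop10 at 46.1 ± 3.64, Nhp2 at 33 ± 5.35 and Npm1 at 32.9 ± 4.82. These 4 lay above Nop16, the fifth at 18.1 ± 1.26, with no overlap between Npm1 and Nop16 over the libraries. From Nop16 down each member overlapped the next in order, to Nop58 at 1.27 ± 0.35, Wdr12 at 1.2 ± 0.23, Tsr1 at 1.16 ± 0.31 and Noc3l, a large subunit factor, at 1.11 ± 0.17. Of the 9 members that rose in both genotypes, Mrto4 ranked 8, Mybbp1a 13, Nolc1 16, Bysl 17 and Ltv1 18 of 40 by level per length. Nop56 ranked 23, Rrp12 33, Nop58 37 and Wdr12 38. The ranks depend on the deposited gene length, which was 10758 bases for Nop58 and 11955 for Wdr12. Whether that length matches the transcripts made in liver was not tested.

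Of the 40 members, 19 passed in none of the contrasts. They were Polr1b, Fbl, Rrp9, Dkc1, Nop10, Gar1, Npm1, Gnl3, Nop14, Imp4, Ddx10, Nob1, Bop1, Pes1, Nop16, Rrs1, Noc2l, Noc3l and Ppan. By the deposited coordinates 18 members overlap another listed gene. The most abundant partners were Idh3b at 203 CPM, which overlaps Nop56 by 5 bases on the opposite strand, and Lgals8 at 143 CPM, which overlaps Heatr1 by 875.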

How the data were processed

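Raw counts of reads per gene were deposited in 4 tables, each with 8 libraries of 2 groups, as the file headers show. The submitters' processing notes name HISAT2 2.0.5 and build mm39. The counting tool, its use of strand and the annotation are not given in the sources used here. Poly-A RNA was selected and libraries were made with random hexamers and dUTP, per the labels' protocols. The deposited tables also hold the authors' log2 fold changes, their adjusted p-values, and gene lengths in bases and coordinates, which were used as they stand, with the sign of the fold changes turned where needed, so that LKO is set over control and refed over fasted. No use was made of 64 other per-library columns. Columns S40 to S55 match no sample title, and the group headings shared by 2 tables gave each its group.

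The tables were joined into 25803 genes. With R 4.3.3, edgeR 4.0.16 and limma 3.58.1, the 14488 genes passing filterByExpr were scaled by TMM (factors 0.941 to 1.07) and fitted with glmQLFit over all 16 libraries with the 4 groups as 1 factor. The common biological coefficient of variation came to 0.185. Tests by quasi-likelihood were made for 5 contrasts, with Benjamini-Hochberg adjustment over all genes tested, and the script was tested on simulated data. The SE is the size of the log2 fold change divided by the square root of the F value. CPM used the TMM-scaled totals, and log2 CPM a prior count of 2.

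The 40 members and all other lists were chosen with earlier results of these data known. Full values were given for the called members of a contrast, and where more than 8 were called, for the 4 largest rises and 4 largest falls. Where none was called, the 4 with the lowest p were given. Of other genes, Cpt1a, Myc and at most the 3 largest called changes per list and contrast were open to naming. Alternatives were other scalings (RLE, upper quartile), other filters on low counts (none, or a mean of 5 CPM), DESeq2 1.42.0, limma-voom, fits of only the 2 groups compared, and leaving out each library in turn. Promoter windows are those of RefSeq on GRCm38.p6.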

Additional observations from a re-analysis of the deposited data

Results flagged for a closer look

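In 13 of 160 sets of 4 libraries (1 member in 1 group), 1 library stood far from the other 3 by Dixon's criterion, where chance alone flags about 1 in 20, or 8. In refed LKO livers, Ppan was at 37.6 CPM in S53, with the others at 21.8 to 24.1, Fbl was at 50.6 CPM in S53 (others 45.4 to 46.2) and Bop1 at 49.9 CPM in S53 (others 40.5 to 42). Library S54 of the same group was low for Nop56, at 22.4 CPM (others 28.6 to 29.4), and for Ddx10, at 6.18 CPM (others 7.65 to 7.93). In refed control livers, S50 was low for Rrp9 at 10.5 CPM (others 12.9 to 13.3) and for Rrp12 at 9.71 CPM (others 11.8 to 12.1), and high for Ddx10 at 7.84 CPM (others 6.43 to 6.64). In the same group S48 was low for Nop10 at 45.3 CPM (others 49.3 to 49.8), and S51 was high for Nop2 at 27 CPM (others 21.9 to 22.6). In fasted control livers, S40 was high for Rrp9 at 20.2 CPM (others 13.8 to 14.7) and S42 for Nop10 at 57.8 CPM (others 52.5 to 53.1). In fasted LKO livers, S44 was high for Ddx21 at 29.8 CPM (others 21.7 to 22.3).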

How the results depend on the processing

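No called value of a named gene changed its direction under the alternatives run. Among members that were not called, the sign changed for 1 under RLE scaling in the refed genotype contrast, for 2 under RLE in the interaction and for 1 under upper quartile scaling in control refeeding. The 14 members called on refeeding in control livers and the 16 in LKO livers stayed within 1.5 times of those counts under both other scalings, both other filters, DESeq2, limma-voom and fits of only the 2 groups compared. With only the 2 groups compared, 0 members in place of 1 were called between genotypes in fasted livers. DESeq2 called 4 members in place of 1 between genotypes in refed livers, and 1 in place of 0 in the interaction, Rrp9, at 0.69. Over all genes, DESeq2 called 924 in place of 526 in the refed genotype contrast and 458 in place of 78 in the interaction, and a filter at a mean of 5 CPM called 197 in the interaction. The cause was not tested. Leaving out 1 library moved the counts over all genes from 1048 (S44) to 1985 in the fasted and from 197 (S48) to 601 in the refed genotype contrast, from 1220 (S40) to 2483 in control and from 1795 to 2730 in LKO refeeding, and from 8 (S48) to 282 (S49) in the interaction. Without 1 library, members called ranged from 0 to 1 (fasted genotype contrast), 0 to 2 (refed genotype contrast), 9 to 15 (refeeding in control), 9 to 18 (refeeding in LKO) and 0 to 0 (interaction). The medians over members ranged from 0.01 to 0.10, 0.10 to 0.17, 0.11 to 0.21, 0.27 to 0.34 and 0.07 to 0.15 (log2) in the same order. Called in all 16 such fits were Nop56, Nop58, Nolc1, Ddx21, Ltv1, Rrp12 and Rcl1 in control livers, and Nop56, Nop58, Nolc1, Mybbp1a, Bysl, Rrp12, Wdr12, Nop2 and Mrto4 in LKO livers. In control livers the call of Mybbp1a was lost in 4 of the 16, that of Wdr12 and of Mrto4 in 3 each, and that of Bysl without S40. Over all alternatives pooled, 869 values of named genes kept their side of the threshold, 89 lost it and 1 gained it. No paired analysis was possible because the library columns carry no replicate number, and the alternative with a replicate block was not run. Depth limited Tsr1 most, with as few as 46 counts in a library.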
